A study of Harpegnathos saltator with 37 samples.

Results

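ILP-2 (LOC105188195) is a gene for an insulin-like peptide of the ant Harpegnathos saltator, and it is 1 of 14001 genes measured by RNA sequencing of central brains. It was taken by its gene identifier, which a RefSeq table (assembly Hsal_v8.6) pairs with the symbol ILP-2, and the rule for the gene uses no measured value. No other insulin-like peptide gene carried a symbol in that table, so none is described here. The values are FPKM, reads scaled for gene length and library size, from 37 libraries in 7 groups.

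Insulin-like peptides are secreted hormones. They bind a receptor kinase, which signals through an adaptor protein, phosphatidylinositol 3-kinase and Akt to restrain the transcription factor FOXO and to promote growth through the TOR kinase. In insects a main source is a set of neurosecretory cells in the brain, and the peptides tie nutrition to growth, metabolism and egg production. In Harpegnathos, workers of a colony without a queen can duel and become gamergates, which mate and lay eggs while the others stay workers.

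Late pupae gave 4 libraries. The adults, per the labels, were callow females aged 5 days, moved in sets of 25 with 3 males to a nest that held no queen and no gamergate, and the days below count from that isolation. At day 10 there were 5 libraries of duelers and 4 of workers, and at day 20 there were 5 of gamergates and 4 of workers. At day 120 there were 6 libraries of dominant gamergates, recognised by mature oocytes, and 9 of hunting workers, in nests whose hunting had been scored after day 100. All adult groups shared the isolation. Dissection took away the optic lobes, the gnathal ganglion and roughly 95% of antennal lobe tissue, and what remained is called the central brain. The labels name no separate nests or animals for the libraries of a group, so a p-value here reflects library to library spread alone, which may in part be technical.

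At each adult age sampled, the mean of ILP-2 was higher in the reproductive caste, and every dueler or gamergate library lay above every worker library of its day. The gap in means was 1.75-fold at day 10, 5.63-fold at day 20 and 3.12-fold at day 120. Central brain is a mixture of cells, and in such bulk samples a change in the number of cells that make ILP-2 and a change in RNA per cell cannot be told apart.

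At day 10, ILP-2 stood at 18.4, 28.3, 19.3, 17.8 and 15.2 FPKM in the 5 dueler libraries. It stood at 11.1, 13.1, 10.9 and 10.2 FPKM in the 4 worker libraries of that day. The groups did not overlap, although the lowest dueler library was only 1.16 times the highest worker library. Duelers averaged 19.8 ± 4.96 FPKM (SD, n = 5) and workers 11.3 ± 1.24 FPKM (SD, n = 4).

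At day 20, the 5 gamergate libraries held ILP-2 at 51.3, 18.4, 70.4, 42.3 and 42.7 FPKM. The 4 worker libraries held it at 8.60, 6.05, 8.43 and 8.90 FPKM. Gamergates at this age had the highest mean of the 7 groups, 45.0 ± 18.7 FPKM (SD, n = 5), against 7.99 ± 1.31 FPKM in workers (SD, n = 4). The spread among gamergates was wide, with replicate 2 well below the other 4, yet this lowest library was 2.07 times the highest worker library.

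At day 120, ILP-2 in the 6 gamergate libraries had a lowest value of 11.8, a median of 17.1 and a highest value of 30.2 FPKM. In the 9 hunting worker libraries the lowest value was 3.05, the median 6.22 and the highest 8.72 FPKM. Gamergates averaged 18.3 ± 6.39 FPKM (SD, n = 6) and hunting workers 5.85 ± 1.97 FPKM (SD, n = 9), again without overlap, the lowest gamergate library being 1.35 times the highest hunting worker library.

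**Figure D1:**
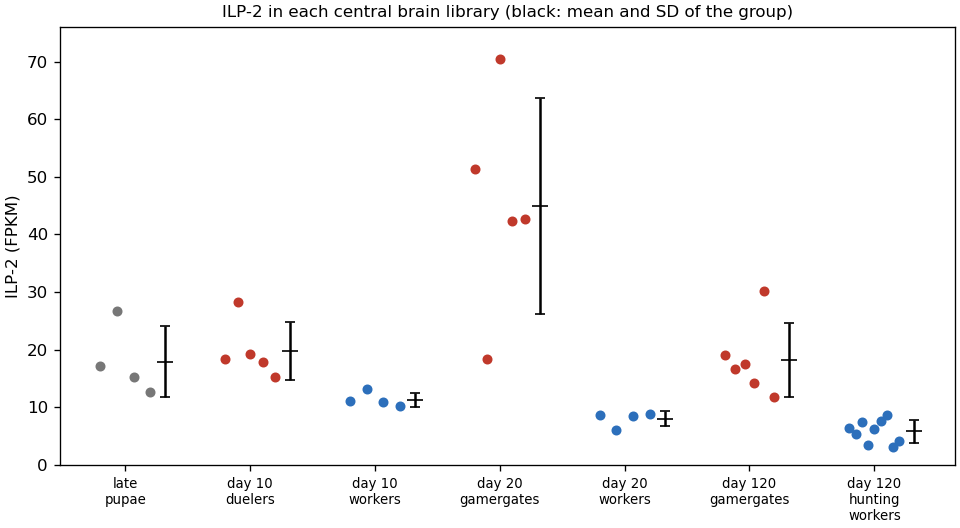
ILP-2 in FPKM (vertical axis, linear from 0) in each of the 37 central brain libraries, 1 point a library, by group (horizontal axis), with the group mean and SD in black. In each pair of the same day the dueler or gamergate points lie above all worker points, and the 5 gamergates of day 20 spread over the widest range, 18.4 to 70.4 FPKM.

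The reads behind these values were enough for the level of every library. From the steps of a single read in low FPKM values, whole reads were recovered, and ILP-2 had 134 to 9301 reads per library at depths of 9.2 to 55.78 M reads assigned to genes. The smallest number came from hunting worker replicate 8 and the largest from day 20 gamergate replicate 3, which had 32.9 M reads where the other libraries of that group had 9.2 to 12.21 M. Expressed as reads per M assigned reads, ILP-2 averaged 70.0 ± 19.5 in duelers and 36.5 ± 5.89 in workers at day 10. The same measure was 173 ± 77.9 in gamergates and 32.1 ± 6.54 in workers at day 20, and 67.8 ± 24.6 in gamergates and 22.1 ± 7.08 in hunting workers at day 120 (SD over the libraries given above).

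The level of ILP-2 also varied more from library to library than that of most genes. Its coefficient of variation was 25.0% in duelers, 41.7% in day 20 gamergates and 35.0% in day 120 gamergates, against 10.9%, 16.4% and 33.7% in the workers of the same days. On the log2(FPKM + 0.5) scale its pooled SD within groups was 0.46, where the median over all genes tested was 0.24. Of 3515 genes whose adult mean lay within 2-fold of that of ILP-2 (17.1 FPKM), 95.5% had a smaller SD within groups.

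Caste was tested with limma on log2(FPKM + 0.5) in 1 fit over all 37 libraries and 9986 genes, with p-values adjusted over all of these by the Benjamini-Hochberg method and a threshold of 0.05. At day 20 the log2 difference of gamergates over workers was 2.31 with a standard error of 0.29 (95% interval 1.72 to 2.91), a 4.97-fold difference on this scale (limma, adjusted p = 4.81e-05, higher in 5 of 5 gamergates than in any worker). ILP-2 was the only gene of the 9986 called at that day, where 0.0100% of genes were called. With only the day 20 groups in the fit ILP-2 was at 2.31 with an adjusted p of 0.0504 by limma, and 2 other genes were called, and the number called was 1 to 3 with 1 library left out. At day 120 the log2 difference was 1.58 ± 0.24 (SE, 95% interval 1.08 to 2.07), or 2.98-fold (limma, adjusted p = 0.00214, higher in 6 of 6), and 0.0601% of genes were called (0.0200% higher and 0.0401% lower). ILP-2 had the smallest p-value of all genes tested at both days.

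The day 10 difference did not pass the threshold over all genes. It was 0.75 ± 0.29 on the log2 scale (SE, 95% interval 0.15 to 1.35), or 1.69-fold (limma, adjusted p = 0.761), at a day when 0.0200% of genes were called and ILP-2 ranked 157th by p-value. As a single value, ILP-2 gave p = 0.0159 at day 10 and p = 0.0159 at day 20 by exact two-sided permutation over 126 arrangements of the libraries. Both days had complete separation of the groups, so these equal p-values do not rank them. At day 120 the same exact test, permuted within sequencing batch over 1260 arrangements, gave p = 0.000794, the smallest it can give. ILP-2 was chosen with earlier results of these data known. These single-gene p-values are therefore no independent support for a caste difference, at day 10 or later.

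Averaged over the 3 days, the caste difference was 1.55 ± 0.16 on the log2 scale (SE, 95% interval 1.22 to 1.87), or 2.92-fold (limma, adjusted p = 4.29e-07). Here 0.150% of genes were called, 15 in number, of which 4 (0.0401%) were higher and 11 (0.110%) lower in the reproductive caste, and ILP-2 again had the smallest p-value. That number was 4 under TPM, and with 1 library left out it ran between 5, without day 10 worker replicate 3, and 22, without day 20 gamergate replicate 5. The day 120 libraries came from 2 sequencing batches, if a b-number in an internal reference of the labels is read as the batch. Within batch 4 ILP-2 averaged 18.1 ± 7.13 FPKM in gamergates and 5.98 ± 2.36 FPKM in hunting workers (SD, n = 5 each), a log2 difference of 1.54. Within batch 1 the single gamergate library held 19.0 FPKM and the hunting workers 5.69 ± 1.69 FPKM (SD, n = 4), a log2 difference of 1.70. The direction was the same in both batches. When gamergate replicate 1, the lone gamergate of batch 1, was left out, the day 120 difference stayed at 1.54 with an adjusted p of 0.0530 by limma.

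The size of the caste difference changed with the day in point estimate, but no change passed the test over all genes. The day 20 value exceeded the day 10 value by 1.56 ± 0.42 on the log2 scale (SE; limma, unadjusted p = 0.000674, the third smallest of all genes, adjusted p = 0.895). The day 120 value exceeded the day 10 value by 0.82 ± 0.38 (SE; limma, unadjusted p = 0.0379, adjusted p = 1.00). At day 120 it was 0.74 smaller than at day 20 in point estimate, a log2 difference of -0.74 ± 0.38 (SE, 95% interval -1.51 to 0.03; limma, adjusted p = 0.663). In these 3 comparisons of caste differences 0% of genes were called over all 9986, while 300, 320 and 646 genes had an unadjusted p under 0.05, and the same test called none on whole reads and 1 under TPM, in the second of the 3.

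The levels at the 3 ages ran differently in the 2 castes by their means. In gamergates ILP-2 was highest at day 20, and in workers the mean was lower at each later day. Each age had its own sequencing batch or batches, as read from the labels. The oldest workers were hunters and the youngest reproductive ants were duelers, so age, role and batch cannot be told apart in what follows.

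In the reproductive caste, day 20 gamergates were above day 10 duelers by 1.07 ± 0.28 on the log2 scale, or 2.10-fold (SE; limma, adjusted p = 0.00468), and 4 of 5 of their libraries were above every dueler. In that comparison 25.8% of all genes were called. Day 120 gamergates were below day 20 gamergates by -1.21 ± 0.28, or 2.32-fold (SE; limma, adjusted p = 0.00250), with 33.7% of genes called. Day 120 gamergates and day 10 duelers did not differ beyond the spread, at -0.14 ± 0.28 (SE, 95% interval -0.70 to 0.43; limma, adjusted p = 0.744), with 25.1% of genes called. This interval still allows a difference of 1.63-fold downward.

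In workers, hunting workers of day 120 were below workers of day 10 by -0.96 ± 0.26 on the log2 scale, or 1.95-fold (SE, 95% interval -1.50 to -0.42; limma, adjusted p = 0.00809), with 24.6% of genes called. The call was lost under TPM, where the difference was -0.56 (limma, adjusted p = 0.0794), and with a replicate block at -0.81 (limma, adjusted p = 0.0723). The steps between neighbouring ages did not pass the threshold. Day 20 workers against day 10 workers gave -0.49 ± 0.31 (SE; limma, adjusted p = 0.275), with 21.4% of genes called. This step shrank to -0.12 under TPM (limma, adjusted p = 0.825) and -0.20 on whole reads (limma-voom, adjusted p = 0.722). It was called with only these groups in the fit (limma, adjusted p = 0.0470). Day 120 hunting workers against day 20 workers gave -0.47 ± 0.26 (SE; limma, adjusted p = 0.258), with 10.1% of genes called.

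Before emergence, ILP-2 was already present. The 4 late pupa libraries held 17.2, 26.8, 15.2 and 12.6 FPKM, against 11.1, 13.1, 10.9 and 10.2 FPKM in day 10 workers. The pupal mean was 18.0 ± 6.17 FPKM (SD, n = 4), and 3 of 4 pupal libraries lay above every day 10 worker. The log2 difference of 0.59 ± 0.31 (SE, 95% interval -0.04 to 1.22) did not pass the threshold (limma, adjusted p = 0.104), in a comparison where 57.3% of genes were called and where stage and batch cannot be told apart. The difference was called under TPM, where it was 1.11 (limma, adjusted p = 0.00320), on whole reads at 0.77 (limma, adjusted p = 0.0412) and with only the groups compared in the fit (limma, adjusted p = 0.0392). The median of all genes rose as well, from 0.01 on the main scale to 0.46 under TPM and 0.16 on whole reads. Under TPM 47.5% of all genes were called higher, and on whole reads 33.3%.

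In order of mean log2 level, from low to high, the groups were day 120 hunting workers, day 20 workers, day 10 workers, late pupae, day 120 gamergates, day 10 duelers and day 20 gamergates. All 3 worker groups thus stood at the low end. None of the 6 pairs of neighbours in this order differed at 0.05 by an exact two-sided permutation test after adjustment over the 6 pairs, the smallest adjusted values being 0.0952 for day 10 workers over day 20 workers and for day 20 gamergates over day 10 duelers. With 4 libraries against 4 this test cannot give an unadjusted p below 0.0286, which the day 10 workers over the day 20 workers reached with all 4 libraries above, so it could hardly separate such neighbours. The fit over all genes, which shares the spread of all groups, called day 20 gamergates over day 10 duelers, as given above. Late pupae and day 120 gamergates were the closest pair (exact p = 0.957).

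**Figure D2:**
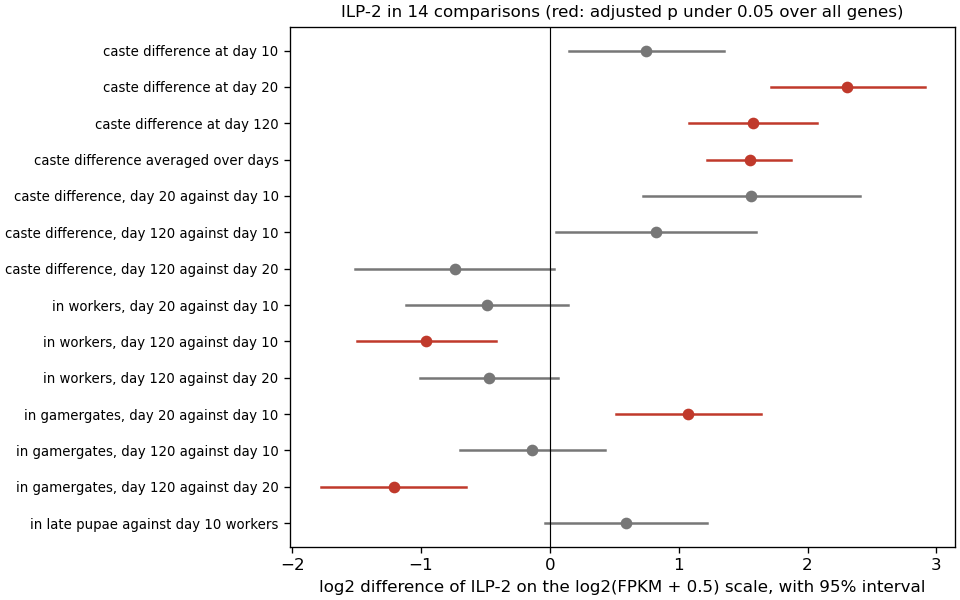
The log2 difference of ILP-2 (horizontal axis, log2(FPKM + 0.5) scale) in the 14 comparisons fitted (vertical axis), with its 95% interval and red where the limma adjusted p is under 0.05. The caste differences of day 20 (2.31) and day 120 (1.58) and their average lie clear of 0, the day 10 difference (0.75) is not called, and the changes with age run upward then downward in gamergates.

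Among peptide genes, the place of ILP-2 by level depended on the group. Of 35 neuropeptide symbols listed, 14 were found in the RefSeq table with letter case kept, which with ILP-2 made 15 genes. Peptide genes outside that list are not covered. FPKM values, which are per length, allow the levels of the 15 to be ranked. ILP-2 ranked 7th in duelers and 12th in workers at day 10, 5th in gamergates and 12th in workers at day 20, and 8th in gamergates and 12th in hunting workers at day 120. In late pupae it ranked 4th. The highest of the 15 in all 7 groups was spab, with a mean of 956 FPKM in day 20 gamergates and 796 FPKM in day 20 workers. Among all 14001 genes ILP-2 ranked 642nd by mean FPKM in day 20 gamergates and 4668th in day 20 workers.

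As a share of the summed FPKM of those 15 genes, ILP-2 made up 1.38 ± 0.258% in duelers and 0.719 ± 0.225% in workers at day 10. Its share was 3.14 ± 1.25% in gamergates and 0.623 ± 0.126% in workers at day 20, and 1.84 ± 0.801% in gamergates and 0.435 ± 0.135% in hunting workers at day 120 (SD over libraries). The ranges did not overlap on any of the days. At day 10 the lowest dueler share was 1.16% and the highest worker share 0.964%. At day 20 the lowest gamergate share was 1.76% and the highest worker share 0.794%. At day 120 the lowest gamergate share was 1.12% and the highest hunting worker share 0.679%. In late pupae the share was 10.1 ± 2.39%, and the other 14 peptide genes summed to 114 to 345 FPKM there, against 1141 to 2139 FPKM in day 10 workers.

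**Figure D3:**
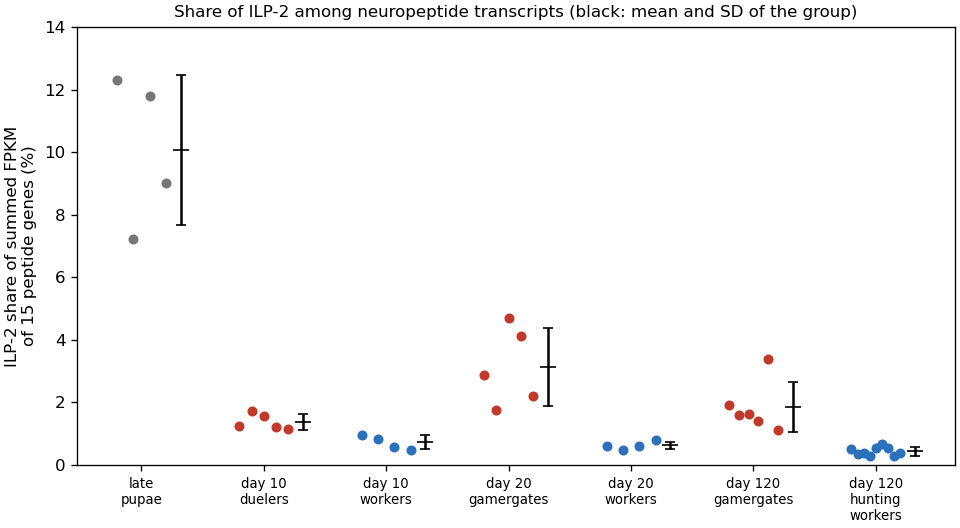
ILP-2 as a percentage of the summed FPKM of 15 peptide genes (vertical axis) in each library, by group (horizontal axis), with the group mean and SD in black. Late pupae stand at 7.21 to 12.3%, and within each adult day the dueler or gamergate shares lie above the worker shares.

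No tested gene of a list for insulin and TOR signalling was called between castes, and listed symbols absent from the RefSeq table were not examined. Of 37 symbols listed for the insulin and TOR pathway, 28 were found and 27 passed the filter on low values (FPKM of at least 1 in at least 4 libraries); Melt did not. None of the 27 was called at day 10, day 20 or day 120, in the average, or in any comparison of caste differences. Over all genes 2, 1, 6 and 15 were called in the first 4 of these by limma, so a count of 0 in 27 is close to the background. The median log2 caste difference of the 27 was 0.03 at day 10, -0.01 at day 20 and 0.11 at day 120, against medians of -0.01, -0.00 and -0.01 over all genes tested, and 22 of the 27 were above 0 at day 120.

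A few members of the pathway separated the castes at some days without passing the test, and are named here after their values were seen. The share of all genes that separated the castes in this way was not counted. ImpL2, whose secreted product in Drosophila binds insulin-like peptides and opposes them, averaged 16.7 ± 3.53 FPKM in gamergates and 35.1 ± 9.67 FPKM in workers at day 20 (SD, n = 5 and 4), and 9.29 ± 0.807 FPKM in gamergates and 23.9 ± 11.5 FPKM in hunting workers at day 120 (SD, n = 6 and 9). All 5 and all 6 gamergate libraries lay below all workers of their day, the opposite side from ILP-2. The log2 differences were -1.03 ± 0.32 at day 20 (SE; limma, adjusted p = 1.00), -1.16 ± 0.26 at day 120 (SE; limma, adjusted p = 0.0805) and -0.75 ± 0.17 averaged over days (SE; limma, adjusted p = 0.0700). At day 10 ImpL2 was 21.0 ± 4.51 FPKM in duelers and 22.8 ± 7.78 FPKM in workers, with overlap. InR-2, an insulin receptor gene, averaged 11.8 ± 0.776 FPKM in gamergates and 7.81 ± 2.37 FPKM in hunting workers at day 120, with 6 of 6 gamergates above all hunting workers and a log2 difference of 0.56 (limma, adjusted p = 0.321). Its mean was lower in the reproductive caste at the earlier days. It was 7.34 FPKM in duelers against 7.94 FPKM in workers at day 10, and 7.03 FPKM in gamergates against 8.09 FPKM in workers at day 20. At each of these days 3 of 5 libraries lay below all workers and 1 of 5 above. Akt, the central kinase of the pathway, was 6.53 ± 0.304 FPKM in duelers and 5.67 ± 0.418 FPKM in workers at day 10, with 5 of 5 duelers above all workers (limma, log2 difference 0.19, adjusted p = 0.761). At day 20 Akt averaged 7.51 FPKM in gamergates and 7.70 FPKM in workers, with 3 of 5 gamergates below all workers and 1 of 5 above. At day 120 it averaged 8.73 FPKM in gamergates and 7.92 FPKM in hunting workers, with 2 of 6 gamergates above all hunting workers. foxo, the gene of the transcription factor that the pathway restrains, and Thor, the gene of a translational repressor that FOXO switches on in Drosophila, each had overlapping values in the castes at all 3 days.

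**Figure D4:**
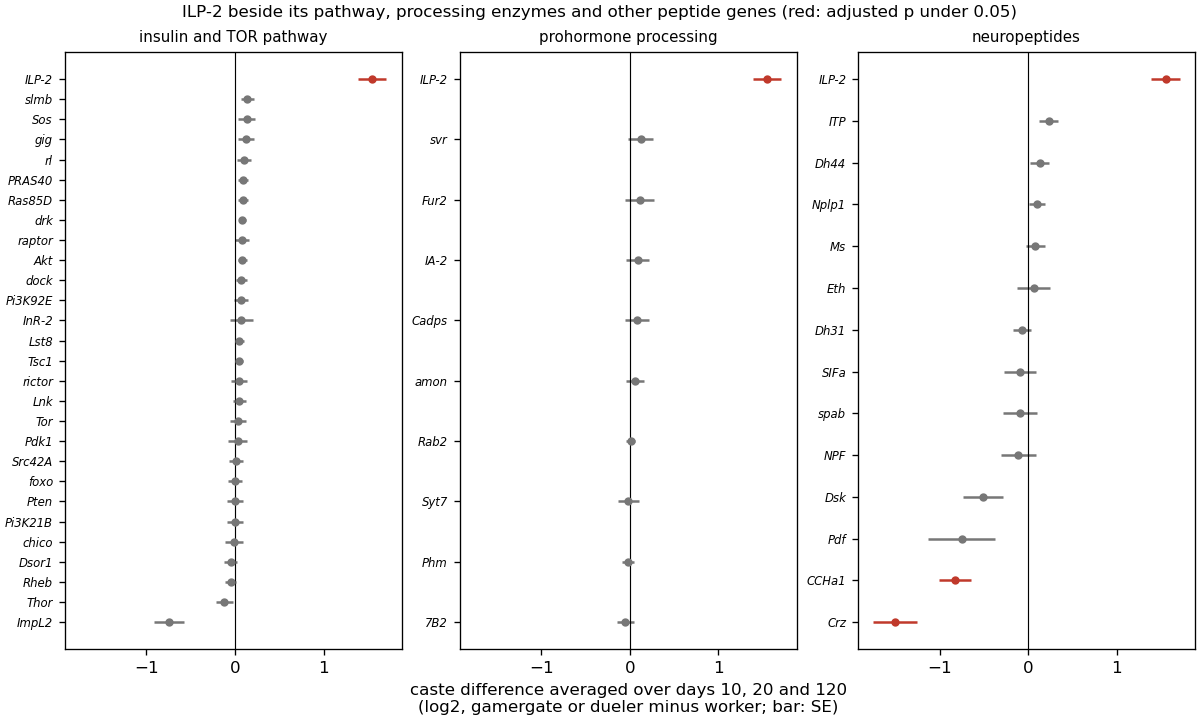
The caste difference averaged over days 10, 20 and 120 (horizontal axis, log2, dueler or gamergate minus worker, bar for SE) of ILP-2 beside the members of 3 gene lists, 1 panel a list and 1 row a gene, in red where the limma adjusted p is under 0.05. No pathway or processing gene is red, and among the other peptide genes Crz (-1.50) and CCHa1 (-0.83) are, both on the side opposite to ILP-2 (1.55).

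With age and stage, members of the pathway did change, at shares close to those of all genes in most comparisons. Between day 120 and day 20 gamergates 8 of 27 were higher and none was lower, where 17.4% of all genes were called higher and 16.3% lower. They included Tor, the nutrient-sensing kinase (0.86, adjusted p = 0.000414), InR-2 (0.68, adjusted p = 0.0215) and gig, a subunit of the complex that restrains TOR (0.60, adjusted p = 0.00497), all by limma and all in the comparison in which ILP-2 was lower. Between day 20 gamergates and day 10 duelers, in which ILP-2 was higher, 1 was higher and 6 were lower, where 25.8% of all genes were called, among them Ras85D, a small GTPase of growth factor signalling (0.81), Tor (-0.65) and Src42A, a tyrosine kinase (-0.64). These 3 genes stayed called under another scaling of the libraries, TPM (every library scaled to the same sum). The list then counted 1 higher and 2 lower, where 10.7% of all genes were called higher and 2.70% lower. Between day 120 gamergates and day 10 duelers 4 were higher and 4 lower, where 13.1% of all genes were called higher and 12.0% lower, with ImpL2 at -1.08 (limma, adjusted p = 0.00995), Ras85D at 0.86 and InR-2 at 0.62 (limma, adjusted p = 0.0415).

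In workers 7, 6 and 2 of the 27 pathway genes were called in the 3 comparisons of ages. Day 120 hunting workers against day 10 workers gave 4 higher and 3 lower, where 13.0% of all genes were called higher and 11.6% lower, with Ras85D at 0.70, Thor at -0.67 and Src42A at -0.57 on the log2 scale. Day 20 against day 10 workers gave 4 higher and 2 lower, where 11.9% of all genes were called higher and 9.49% lower, with Ras85D at 0.84, Src42A at -0.60 and Dsor1, a kinase of the Ras cascade, at -0.47. Day 120 hunting workers against day 20 workers gave 2 higher and 0 lower, where 5.39% of all genes were called higher and 4.72% lower, with Tor at 0.51 and Tsc1, the partner of gig, at 0.32. Several of these calls moved with the scaling of libraries. Under TPM the median of all genes shifted to 0.44 between day 120 hunting workers and day 10 workers and to 0.32 between day 20 and day 10 workers. On that scale Thor was at -0.21 and Src42A at -0.13 in the first of these comparisons, neither called (limma, adjusted p = 0.250 and 0.503), and the list counted 16 higher and 0 lower, where 48.8% of all genes were called higher and 2.68% lower. Dsor1 was then at -0.08 and Src42A at -0.22 in the second, and Tor at 0.60 and Tsc1 at 0.40 between day 120 and day 20 workers, none of them called, whereas Ras85D stayed called in both comparisons with day 10.

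In late pupae against day 10 workers 18 of the 27 were higher and 5 lower, where 30.6% and 26.8% of all genes were called. ImpL2 was at -2.34, Thor at -1.80 and InR-2 at 1.33 on the log2 scale, each called by limma (adjusted p = 7.17e-07, 1.31e-09 and 4.16e-05) and under TPM as well.

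The tested genes of a list for cutting and packaging peptide hormones were not called between castes either. Of 15 listed, 9 were found and tested, and 0 of 9 were called in the caste comparisons or their differences between days. At most 0.150% of all genes were called in any of these, so 0 of 9 is close to the background. Between day 20 gamergates and day 10 duelers 2 were lower, amon, a convertase that cuts prohormones (-0.62, limma, adjusted p = 0.0116), and 7B2, its helper protein (-0.55, also called), and neither was called under TPM or on whole reads. Between day 120 and day 20 gamergates IA-2, a dense-core vesicle protein (0.80), and amon (0.52) were higher and Rab2, a small GTPase of vesicle formation, was lower (-0.33). In that comparison 17.4% of all genes were called higher and 16.3% lower. The amon call was lost on whole reads and the Rab2 call under TPM. IA-2 was also higher in day 120 gamergates than in day 10 duelers (0.58), and Phm, an amidating enzyme, in day 120 hunting workers than in day 10 workers (0.33). Each was the only 1 of the 9 called there, where 25.1% and 24.6% of all genes were called. In late pupae against day 10 workers 2 were higher and 6 lower, where 30.6% of all genes were called higher and 26.8% lower. They were led by Syt7, a synaptotagmin (-2.17), Fur2, a furin-type protease (1.33), and 7B2 (-1.25). Under TPM 3 were higher and 4 lower, where 47.5% of all genes were called higher and 11.3% lower.

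Among ILP-2 and the listed peptide genes tested, only ILP-2 was called higher in the reproductive caste by limma. Of 35 symbols listed 14 were found and 13 tested, Pban falling under the filter. Crz, the gene for corazonin, was lower at day 120 (-2.32, limma, adjusted p = 0.00281) and in the average (-1.50, limma, adjusted p = 0.00277). Its means were 20.9 ± 10.2 FPKM in gamergates and 126 ± 82.5 FPKM in hunting workers at day 120 (SD, n = 6 and 9). CCHa1, the gene for a CCHamide peptide, was lower in the average (-0.83, limma, adjusted p = 0.0418), a call lost under TPM (adjusted p = 0.130) and on whole reads (adjusted p = 0.106). Dsk, a sulfakinin gene that insulin-producing cells of the Drosophila brain also express, had log2 caste differences of -0.79, -0.40 and -0.34 at days 10, 20 and 120, none called by limma (adjusted p = 0.761, 1.00 and 0.613).

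With age, at most 4 of the 13 peptide genes were called in any comparison of adult ages on the main scale. Over all genes 10.1% to 33.7% were called in these comparisons. The direction of the calls moved with the scaling. Between day 120 hunting workers and day 10 workers 1 was higher and 1 lower, where 13.0% of all genes were called higher and 11.6% lower. Under TPM 4 of 14 tested were higher and 1 lower, where 48.8% of all genes were called higher and 2.68% lower. Eth, the ecdysis triggering hormone gene, was lower in day 120 gamergates than in day 10 duelers (-2.13) and day 20 gamergates (-1.67), and lower in day 120 hunting workers than in day 10 workers (-1.23), each also called under TPM. SIFa, the SIFamide gene, was lower in day 120 gamergates than in day 20 gamergates (-1.08) and day 10 duelers (-0.88), where CCHa1 was also lower (-0.89), and the calls of both genes against duelers were lost under TPM and on whole reads. Ms, the myosuppressin gene, was higher in day 120 hunting workers than in day 10 workers (0.48) and day 20 workers (0.60), and in day 120 than in day 20 gamergates (0.48), where Nplp1 was higher too (0.44). Of these, the difference in Ms between hunting workers and day 20 workers was not called under TPM or on whole reads, and those of Ms and Nplp1 between gamergates not on whole reads. Between day 20 gamergates and day 10 duelers Dh31, a diuretic hormone gene, was the 1 gene called (-0.55), and it was not called under TPM or on whole reads.

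Late pupae had less of nearly all listed peptide transcripts, but not of ILP-2. Against day 10 workers 12 of 13 were lower and none higher, where 26.8% of all genes were called lower and 30.6% higher. The median log2 difference of the 13 was -1.77 where the median of all genes was 0.01. Crz was at -5.62, spab at -4.98 and Dsk at -3.85, each called by limma (adjusted p = 3.27e-11, 6.38e-13 and 7.71e-09), while ILP-2 was at 0.59 and not called on this scale. ILP-2 was called higher at 1.11 under TPM (adjusted p = 0.00320) and at 0.77 on whole reads (adjusted p = 0.0412), both by limma. The median of all genes was then 0.46 and 0.16, and 47.5% and 33.3% of all genes were called higher. Only ITP, an ion transport peptide gene, was not called among the 13 (-0.05, limma, adjusted p = 0.853). Under TPM it was at 0.45 and called higher, but this was close to the median of all genes on that scale, 0.46.

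Genes most like ILP-2 across the 33 adult libraries were sought by Pearson correlation of log2(FPKM + 0.5) among 8407 genes with an adult mean of at least 2 FPKM. These values are descriptions, since the libraries share groups, depth and batch. The highest was CPR1 with r = 0.70, followed by LOC105186809 (0.62), LOC105182207 (0.58), Scgbeta (0.57) and LOC105184357 (0.56). The lowest were LOC105182535 (-0.66), LOC105184868 (-0.66) and LOC105188997 (-0.64), where the median of all genes was -0.01 and the central 95% lay between -0.38 and 0.35. CPR1 was itself higher in duelers than in workers at day 10, with 9.08 ± 3.51 FPKM in duelers and 1.12 ± 0.516 FPKM in workers (log2 difference 2.55, limma, adjusted p = 0.00282), and its differences were 1.41 at day 20 and 0.37 at day 120, not called.

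Once group and batch means were removed, the highest correlations with ILP-2 were those of LOC112590294 (0.62), LOC112589095 (0.61) and CPR1 (0.59), and the lowest those of Bcat (-0.68), LOC105181694 (-0.63) and LOC105185192 (-0.62), over the same 33 libraries. Only CPR1 was on both lists of highest genes. Crz correlated with ILP-2 at -0.63 across adult libraries and at 0.04 within groups.

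Markers of cell types and of other tissues were read at levels that varied between libraries. Neuron markers (8 genes) summed to 396 to 1000 FPKM and glia markers (6 genes) to 335 to 944 FPKM in adult libraries, with none at 0 throughout a group. Retina and optic lobe markers (6 genes) ranged widely, from 81.1 to 528 FPKM in gamergates and 405 to 588 FPKM in workers at day 20, and from 13.8 to 488 FPKM in gamergates and 29.4 to 579 FPKM in hunting workers at day 120. Their median log2 caste difference was -0.09 at day 10, -0.61 at day 20 and -0.59 at day 120, with 0 of 5 tested called at each day. Muscle markers (8 genes) summed to 24.3 to 506 FPKM in duelers and 37.4 to 368 FPKM in workers at day 10. The median log2 caste difference of the muscle markers was -0.99 at day 10, 0.09 at day 20 and 0.25 at day 120, with 0 of 7 tested called at each day. Fat body and yolk markers (5 genes) summed to 3026 to 6304 FPKM in gamergates and 1940 to 3945 FPKM in hunting workers at day 120, where 1 of 5, Vgn, was called higher. Of the markers of endocrine glands and of haemocytes only 1 gene each was tested, and neither was called between castes. Over all genes 0.0200%, 0.0100% and 0.0601% were called at days 10, 20 and 120, so the counts of 0 are close to the background. Whether these transcripts came from tissue left at dissection was not tested, nor was any part of such tissue in the ILP-2 differences.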

How the data were processed

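Polyadenylated RNA of central brains was sequenced from strand-specific libraries. The authors deposited 1 table of FPKM per gene; bcl2fastq, STAR and featureCounts were used per the submitters' processing notes, and no version is given in the sources used here. The build is likewise not stated, so positions are left out. Names came from a RefSeq table (Hsal_v8.6) that matched 13989 of 14001 identifiers and gave 4117 of them a symbol. Symbols were matched with letter case kept, since some differ only in case, and product names could not be searched. Reads shared by near-identical genes may have been split or dropped.

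Tests used limma 3.58.1 (lmFit, eBayes with a trend) in R 4.3.3 on log2(FPKM + 0.5) of 9986 genes with FPKM of at least 1 in at least 4 libraries, with 1 mean per group and a batch term within day 120. The scale understates changes of low genes. The batch was read from a b-number, beside a run name, in the internal reference of each label, which does not spell out its meaning. So read, day 10 was batch 2, day 20 batch 5, late pupae batch 3, and day 120 batches 1 and 4. Whole reads, recovered for all 13445 genes above 0 within a tolerance of 0.1 read, were tested with limma-voom (at least 10 reads in at least 4 libraries) as an alternative chosen after seeing the data. Other alternatives were pseudocounts of 0.1 and 1, no filter, TPM, only the groups compared, a replicate block, batch 4 alone, and each library left out. The procedure was run on simulated data with independent noise, a cap on the spread of the noisiest genes, and changes planted at day 120 alone. The other comparisons were not simulated.

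ILP-2 and the gene lists were chosen with earlier results of these data known. Named were ILP-2, list members called in a caste comparison, up to 3 called members per list in other comparisons by size, and the genes with the highest (5 across adults, 3 within groups) and lowest (3 each) correlation. Genes outside this rule, chosen after their values were seen, are spab, Dsk, ITP, Melt, Pban, Vgn, foxo, Akt and, in caste comparisons, ImpL2, InR-2 and Thor.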

Additional observations from a re-analysis of the deposited data

Results flagged for a closer look

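Across ILP-2 and 5 other genes of the text (ImpL2, Crz, CCHa1, CPR1 and spab), the highest and lowest library of each of the 7 groups was compared with the rest of its group by the gap to its neighbour over the whole range, a check that chance alone passes in about 1 of 20 groups. In day 20 workers ILP-2 was lowest in replicate 2 at 6.05 FPKM, a gap of 0.834 of the range against a critical value of 0.829, with the other 3 libraries at 8.43 to 8.90 FPKM. In late pupae ImpL2 had 1 high library at 8.89 FPKM (0.840 of the range), and spab had 1 at 148 FPKM (0.961 of the range) where the group mean was 52.4 FPKM. In day 120 hunting workers CPR1 had 1 high library at 4.04 FPKM (0.636 of the range against a critical value of 0.493). No explanation of these libraries was tested.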

How the results depend on the processing

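Of 312 recomputed values over the 14 comparisons, 300 kept their direction and their side of the threshold. Most of the 312 came from leaving out 1 library. Of the 106 that did not, 95 kept both. A value that stayed uncalled also counts as kept. The caste difference averaged over days was called under all of its alternatives (1.46 to 1.68), and the day 20 difference lay between 2.12 and 2.60 with any 1 library left out, called each time by limma. With only the groups compared in the fit, ILP-2 stood at 2.31 at day 20 (adjusted p = 0.0504) and 1.58 at day 120 (adjusted p = 0.0620), both no longer called, while -0.49 for day 20 against day 10 workers (adjusted p = 0.0470) and 0.59 for late pupae (adjusted p = 0.0392) were. The difference between day 20 and day 10 workers was only -0.12 under TPM (limma, adjusted p = 0.825) and -0.20 on whole reads (limma-voom, adjusted p = 0.722). Batch 4 alone gave 1.54 at day 120 (adjusted p = 0.0524). Leaving out 1 library moved the day 120 difference between 1.43 and 1.69, and it was lost only without gamergate replicate 1. Under TPM, day 120 hunting workers against day 10 workers gave -0.56 (adjusted p = 0.0794, no longer called), day 120 gamergates against day 10 duelers turned to 0.05 (adjusted p = 0.919), and late pupae gave 1.11 (adjusted p = 0.00320, called). On whole reads late pupae gave 0.77 (adjusted p = 0.0412, called). The median of all genes for late pupae was 0.46 under TPM and 0.16 on whole reads, against 0.01 on the main scale. The causes were not tested. With 1 library left out, the number of genes called at day 120 ran between 0, without gamergate replicate 1, and 13, without hunting worker replicate 5.

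The main fit did not pair libraries by the replicate numbers that groups shared. Deviations of same-numbered libraries correlated between -0.128 and 0.178 at day 10, 0.0993 and 0.450 at day 20, and -0.0242 and 0.176 at day 120. In turn 0 of 4, 2 of 4 and 1 of 6 libraries correlated best with their own number. With so few libraries these values cannot decide whether a shared number marks a pairing. With a replicate block, ILP-2 was at 1.36 at day 120 (adjusted p = 0.401) and -0.81 in day 120 hunting workers against day 10 workers (adjusted p = 0.0723), and the calls over all genes were 1, 1, 0 and 6 where 2, 1, 6 and 15 were made without it at day 10, day 20, day 120 and in the average; batch 4 alone made 0 at day 120 and 12 in the average, and whole reads made 9 in the average.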
